A study of Mus musculus with 576 samples.

Results

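The control culture was followed here over its last interval, from 48 to 72 hours, by setting single cells of day 3 against single cells of day 2. A well of the 2 control plates counted as a cell when it held 50000 counts or more and 1500 detected genes or more, with mitochondrially encoded genes taking no more than 20% of its counts. This kept 93 cells on day 3 and 96 cells on day 2, together 189 of the 563 cells kept over all 6 plates. All cells came from livers of C57/Bl6J mouse embryos at embryonic day 14.5, which were depleted of cells carrying lineage antigens and sorted on CD117, CD71 and CD24 to enrich burst forming unit-erythroid (BFU-E) cells. The medium of every group held 100 ng/mL stem cell factor, 40 ng/mL insulin-like growth factor 1 and 2 U/mL erythropoietin. The control culture had no dexamethasone and was sampled at 72 hours (day 3), 48 hours (day 2) and 24 hours (day 1). A second culture, with dexamethasone at 100 nM, was sampled at the same times. The study compared the synthetic glucocorticoid with no treatment and later with earlier days. Each day of each culture is 1 plate, and the labels do not say whether plates came from separate animals or cultures. Control day 3 and day 2 therefore have 1 plate a side, and their differences are given as sizes without a test. Cells of a plate describe that plate and are not replicates.

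BFU-E are early committed progenitors of the red cell lineage. Under erythropoietin they pass through colony forming stages to erythroblasts, which fill with globin and heme, stop dividing, condense the nucleus and clear organelles. Stem cell factor acts through the receptor Kit, which is lost along this path. Glycolysis turns glucose into pyruvate and lactate with a small gain of ATP, and many of its genes are also targets of the hypoxia-inducible factors.

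Levels are counts summed over the kept cells of a plate and scaled by library size to CPM with the trimmed mean of M values (TMM). Differences are log2 ratios of day 3 over day 2 with a prior count of 2. The plates held 116554686 counts on day 3 and 113125231 counts on day 2, so that 3 counts are worth 0.0268 CPM on day 3 and 0.0278 CPM on day 2. A cell had a median of 1244026 counts on day 3 and 1046041 counts on day 2. Fewer genes were detected per cell on day 3, with medians of 6961 genes on day 3 and 7556 genes on day 2, and of 5494 genes on day 3 and 6409 genes on day 2 after thinning each cell to 300000 counts, which left out 1 cell of day 3 and 3 cells of day 2. The mitochondrial share had medians of 3.38% on day 3 and 3.47% on day 2. Markers of the red cell lineage were abundant on both days, while the 13 lymphoid markers summed to 5.41 CPM on day 3 and 1.65 CPM on day 2 and the 10 hepatocyte markers to 2.90 CPM on day 3 and 0.853 CPM on day 2.

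Of 9384 genes averaging 5 CPM or more over both plates, 555 (5.91%) were at least 2-fold higher on day 3 and 525 (5.59%) at least 2-fold lower. The median log2 ratio was 0.02, with a 10th percentile of -0.73 and a 90th percentile of 0.75. Single cells carried many of these differences, since 300 of the 555 higher genes and 135 of the 525 lower genes had over 20% of their counts in 1 cell of the plate where they were higher. With each gene's highest cell left out on both plates, 420 genes were higher and 592 lower. Among the 2433 genes averaging 100 CPM or more, 59 were higher and 29 lower by that size. The only test with residual degrees of freedom averages day 3 against day 2 over both cultures, on the sums of all 6 plates, with an additive term for dexamethasone beside the day. In edgeR's quasi-likelihood test it called 0 of 20040 genes higher (0%) and 0 lower (0%) at an adjusted p of 0.05, with 586 genes higher and 664 lower at an unadjusted p under 0.05. DESeq2 on the same sums called 167 genes higher (1.01% of the 16543 genes given an adjusted p) and 216 lower (1.31%). Both tests rest on 2 residual degrees of freedom. With 1 plate for each day of each culture, their error is the departure of the plates from additive day and dexamethasone terms. It holds any difference between the cultures in their course over days together with technical spread. The design has no replicate plates to tell these apart. In the dexamethasone culture alone, 435 of 9514 genes (4.57%) were at least 2-fold higher on day 3 and 417 (4.38%) at least 2-fold lower.

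**Figure D1:**
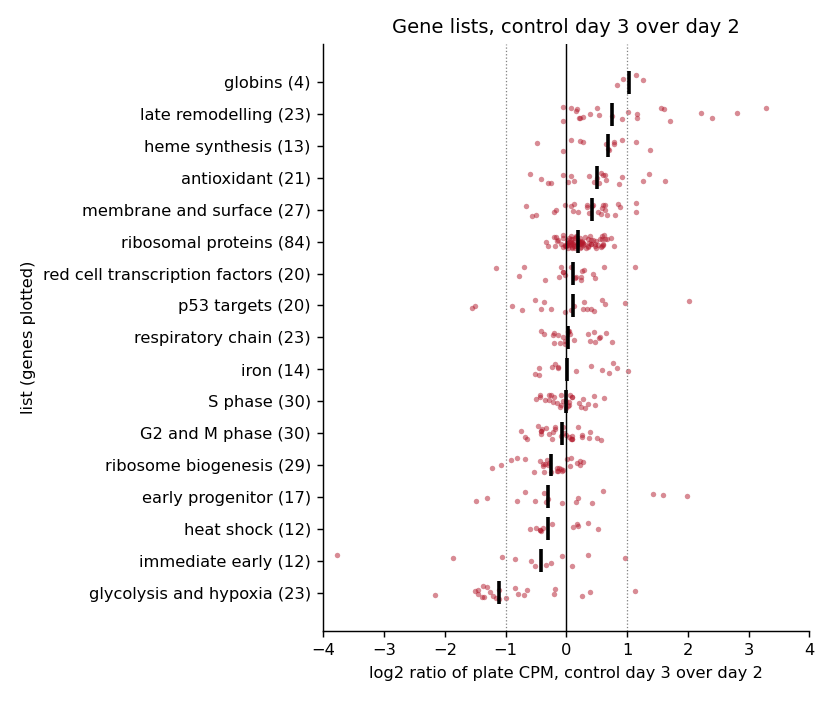
Log2 ratios of plate CPM, control day 3 over day 2 (x axis), for genes averaging 5 CPM or more in 17 gene lists (y axis, with the number of genes). Each point is a gene, the black bar is the median of the list and dotted lines mark 2-fold. The glycolysis and hypoxia list has the lowest median (-1.11) and the globins the highest (1.04) of the lists drawn, and 1 point, Flt3, lies below the axis.

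Glycolytic genes were lower on day 3. Of 25 genes listed for glycolysis and hypoxia, with earlier results of these data known, 23 averaged 5 CPM or more. Of these 13 were at least 2-fold lower (5.59% of all genes) and 1 was at least 2-fold higher (5.91% of all genes). The median log2 ratio was -1.11 against 0.02 over all genes. Members of nearly every step of the pathway stood among the 13, though not every isoform did. The hexokinase Hk1, the phosphofructokinase Pfkm and the pyruvate kinase Pklr stayed within 2-fold. In control cells with at least 3000 CPM of S phase genes, their log2 ratios were -0.12, -0.71 and -0.52. Median cells of that set had 313 CPM of Hk1 on day 3 and 327 CPM on day 2. For Hk2, the hexokinase among the 13, they had 0 CPM on day 3 and 1.25 CPM on day 2. Pfkl, the liver-type phosphofructokinase that commits sugar to glycolysis (chr10:77986947-78010083, minus strand, GRCm38), had 111 CPM on day 3 (Poisson interval 109 to 113, counting error only) and 497 CPM on day 2 (492 to 501), a log2 ratio of -2.16. Across cells its lowest, median and highest CPM were 0, 54.3 and 716 on day 3, and 8.13, 429 and 1224 on day 2. The cells overlapped, but Pfkl was counted in 78 of 93 cells on day 3 and in 96 of 96 on day 2.

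Aldoa, the aldolase that splits fructose bisphosphate, had 1280 CPM on day 3 and 3526 CPM on day 2 (log2 ratio -1.46). Its lowest, median and highest cells were at 95.8, 1052 and 3692 CPM on day 3, against 240, 3203 and 6818 CPM on day 2. The median day 2 cell thus stood close to the highest day 3 cell. Ldha, which makes lactate from pyruvate, had 1583 CPM on day 3 and 3657 CPM on day 2 (-1.21), with cell medians of 1174 CPM on day 3 and 3026 CPM on day 2. Tpi1, triose phosphate isomerase, had 776 CPM on day 3 and 2129 CPM on day 2 (-1.46), and Pkm, the muscle-type pyruvate kinase, 560 CPM on day 3 and 1429 CPM on day 2 (-1.35). Lower by similar sizes were Pfkp, the platelet-type phosphofructokinase (-1.39), the hexokinase Hk2 (-1.38), phosphoglycerate kinase Pgk1 (-1.30), glucose phosphate isomerase Gpi1 (-1.25) and the enolase Eno1 (-1.11). The list also holds targets of hypoxia-inducible factors outside the pathway. Pdk1, the kinase that holds pyruvate back from the mitochondrial cycle, had 117 CPM on day 3 and 331 CPM on day 2 (-1.50), with cell medians of 10.6 CPM on day 3 and 251 CPM on day 2. P4ha1, a subunit of collagen prolyl hydroxylase, was at -1.15, and Ankrd37 at -1.11. Pgam1, the phosphoglycerate mutase, lay just outside 2-fold (1.998-fold lower) and Gapdh at -0.80.

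**Figure D2:**
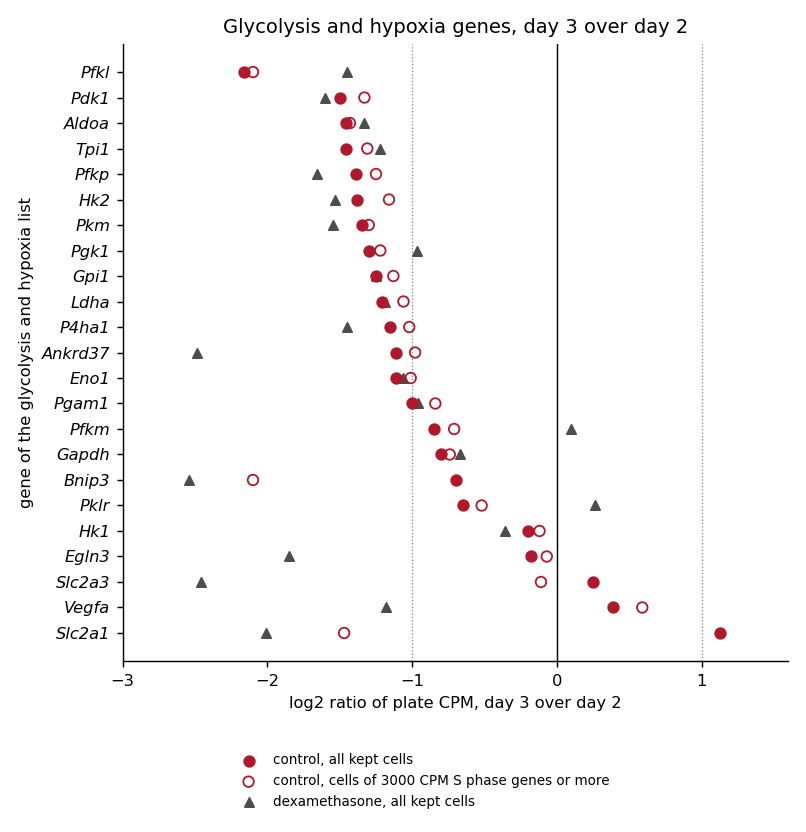
Log2 ratio of plate CPM, day 3 over day 2 (x axis), of the 23 measured genes of the glycolysis and hypoxia list (y axis). Filled circles are all kept control cells, open circles the control cells with at least 3000 CPM of S phase genes, triangles the dexamethasone culture. Dotted lines mark 2-fold; Slc2a1 stands at 1.13 with all control cells and at -1.47 in the open circle.

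The list as a whole was highest on day 2 in both cultures. Summed over its members it stood at 8860, 17189 and 8028 CPM on days 1, 2 and 3 of the control culture, and at 10410, 17910 and 7716 CPM on the same days with dexamethasone. In single cells the sum had a lowest, median and highest value of 1459, 6992 and 20338 CPM on day 3, and of 2208, 15307 and 33060 CPM on day 2. The dexamethasone culture does not share plates with the control culture. There 16 of 22 measured members were at least 2-fold lower on day 3, against 4.38% of all genes. None was at least 2-fold higher, against 4.57% of all genes, and the median was -1.39. Over both cultures the log2 fold change was -1.80 for Pfkl (SE 0.22) and -1.55 for Pdk1 (SE 0.13), each with an edgeR adjusted p of 0.727. DESeq2 called 15 of the 25 members lower and 0 higher, against 1.31% lower and 1.01% higher of all genes given an adjusted p. DESeq2's adjusted p was 1.47e-14 for Pdk1 and 6.20e-10 for Pfkl. Among genes averaging 50 CPM or more, both stood at edgeR's smallest adjusted p of 0.0615. Slc16a3, an exporter of lactate that is not on the list, was among the 12 lowest ratios of all genes eligible to be named, with 84.7 CPM on day 3 and 364 CPM on day 2 (-2.10). Its ratio was -1.63 with dexamethasone.

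**Figure D3:**
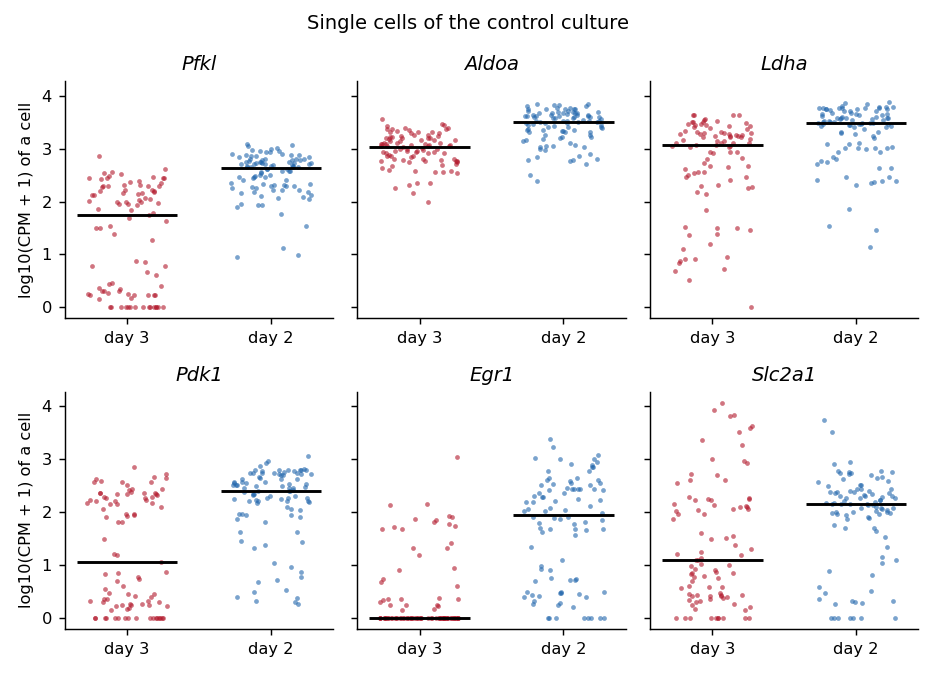
Level of 6 genes in each kept cell of the control culture, as log10(CPM + 1) (y axis), for 93 cells of day 3 (left in each panel) and 96 cells of day 2; black bars are medians of cells. Pfkl, Aldoa, Ldha, Pdk1 and Egr1 lie lower on day 3, while Slc2a1 has a lower median (11.3 against 140 CPM) with some cells above every day 2 cell.

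The 1 member at least 2-fold higher in the plate sum was Slc2a1, a glucose transporter that is abundant in human red cells. It had 521 CPM on day 3 and 239 CPM on day 2, a log2 ratio of 1.13. Its median cell went the other way, with 11.3 CPM on day 3 and 140 CPM on day 2. The plate sum of day 3 came from few cells, since 10 of 93 cells on day 3 and 2 of 96 on day 2 were over 1000 CPM. Slc2a3, another glucose transporter, was at 0.25, and Vegfa, a secreted target of hypoxia-inducible factors, at 0.39. With dexamethasone these 3 genes had log2 ratios of -2.01, -2.46 and -1.18. Bnip3, a mitophagy receptor, was at -0.70, with 42.2% of its day 3 counts in 1 cell.

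The window of 250 bases before the start is shown for 3 of the lower genes, because they moved together, and for Alas2 as a heme gene that was higher. Sequences are from RefSeq (GRCm38.p6), read 5′ to 3′ along the gene's strand. Capitals mark ACGTG, a form of the core letters that hypoxia-inducible factors bind, on either strand in Pgk1, Aldoa and Pfkl. In Alas2 they mark AGATAA, the GATA letters, on either strand. The windows are chrX:106186850-106187099 (plus strand) for Pgk1, chr7:126799255-126799504 (minus strand) for Aldoa, chr10:78009808-78010057 (minus strand) for Pfkl and chrX:150547167-150547416 (plus strand) for Alas2.
Pgk1: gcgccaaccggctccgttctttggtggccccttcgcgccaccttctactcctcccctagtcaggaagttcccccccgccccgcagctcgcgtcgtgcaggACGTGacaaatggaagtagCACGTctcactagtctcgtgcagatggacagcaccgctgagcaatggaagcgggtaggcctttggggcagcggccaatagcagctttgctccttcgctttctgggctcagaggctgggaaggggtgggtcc
Aldoa: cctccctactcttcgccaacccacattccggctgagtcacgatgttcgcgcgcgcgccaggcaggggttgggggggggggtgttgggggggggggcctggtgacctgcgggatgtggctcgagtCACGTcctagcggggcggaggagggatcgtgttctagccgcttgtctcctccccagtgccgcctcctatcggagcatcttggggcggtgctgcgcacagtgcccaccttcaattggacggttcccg
Pfkl: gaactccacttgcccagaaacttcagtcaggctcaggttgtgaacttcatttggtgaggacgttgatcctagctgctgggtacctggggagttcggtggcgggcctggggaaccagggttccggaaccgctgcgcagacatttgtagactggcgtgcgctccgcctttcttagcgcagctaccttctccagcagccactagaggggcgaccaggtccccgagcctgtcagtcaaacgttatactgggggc
Alas2: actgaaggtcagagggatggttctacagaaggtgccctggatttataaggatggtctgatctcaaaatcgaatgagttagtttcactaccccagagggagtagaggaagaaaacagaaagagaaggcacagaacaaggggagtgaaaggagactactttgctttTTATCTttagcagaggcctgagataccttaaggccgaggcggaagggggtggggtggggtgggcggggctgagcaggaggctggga

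Pgk1 holds ACGTG 150 and 131 bases before its start, and Aldoa, in 1 of its 3 listed windows, 126 bases before it. Pfkl, which had the lowest ratio of the list, has no ACGTG in the window shown. Other forms of the core letters were not searched in any window. Alas2 holds 1 AGATAA, 86 bases before its start. ACGTG was found in a window of 4998 of 27025 genes (18.5%), of 14 of the 23 list members with a window (60.9%) and of 7 of the 13 members at least 2-fold lower (53.8%). CACGTG, which contains it, was found in 6.86% of all genes and in 3 of the 23 members. The Krüppel-like letters CCNCNCCC were found in 48.5% of all genes and in 21 of the 23 members, and AGATAA in 11.4% and in 3 of the 23. The list was made with targets of hypoxia-inducible factors among its members, so its ACGTG shares are not independent of that choice. A match describes letters and is not a binding site.

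Genes of the red cell product were higher on day 3. All 4 measured globin genes were higher, 2 of them at least 2-fold, with a median log2 ratio of 1.04. Leaving out cells with under 3000 CPM of S phase genes (14 of day 3 and 5 of day 2, a limit set with these values in view) put all 4 under 2-fold, with a median of 0.46. Hba-a1, an alpha globin, had 4160 CPM on day 3 and 2161 CPM on day 2 (0.94), and the beta globin Hbb-bt 2274 CPM on day 3 and 1034 CPM on day 2 (1.14). Near-identical copies (Hba-a1 and Hba-a2, Hbb-bs and Hbb-bt) may exchange reads, so the sum is given too. It was 15930 CPM on day 3 and 8486 CPM on day 2, with cell medians of 11548 CPM on day 3 and 5410 CPM on day 2. Cells with under 1000 CPM of globin numbered 9 of 93 on day 3 and 20 of 96 on day 2. Of the 13 heme synthesis genes 2 were at least 2-fold higher and none lower, with a median of 0.68. Without the cells low in S phase genes 1 was higher, with a median of 0.48. Over all genes 5.91% were at least 2-fold higher and 5.59% at least 2-fold lower, the base for the globin and heme counts. Alas2, the erythroid enzyme of the first step, had 2014 CPM on day 3 and 778 CPM on day 2 (1.37), with cell medians of 871 CPM on day 3 and 177 CPM on day 2. Cpox, a late step, was lowest at -0.48. DESeq2 called Uros and Alad, both enzymes of the pathway, higher over both cultures, and it called Hba-a1, Hba-a2 and Hbb-bt.

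Of 27 membrane and surface genes 2 were at least 2-fold higher and none lower, with a median of 0.42. Over all genes 5.91% were higher and 5.59% lower by that size, the base for every list in this paragraph. The counts of membrane, iron and transcription factor genes lay near these shares. The membrane scaffold gene Mpp1 had 587 CPM on day 3 and 264 CPM on day 2 (1.15). Slc4a1, the anion exchanger, had 3376 CPM on day 3 and 2595 CPM on day 2 (0.38) but cell medians of 1885 CPM on day 3 and 189 CPM on day 2, so the plate sum moved less than the median cell. DESeq2 called 7 of the list higher, including Mpp1 and Slc4a1, against 1.01% of all genes given an adjusted p. The 14 iron genes had a median of 0.01 with 1 at least 2-fold higher, Fam210b at 1.02, while the transferrin receptor Tfrc had 5180 CPM on day 3 and 3905 CPM on day 2 (0.41). Of 20 red cell transcription factors 1 was higher and 1 lower by 2-fold. Nfe2, which binds globin control regions, had 640 CPM on day 3 and 293 CPM on day 2 (1.13). Zfpm1, a partner of GATA1, had 9.64 CPM on day 3 and 21.4 CPM on day 2 (-1.15), Gfi1b was at -0.78, Klf1 at 0.15 and Gata1 at 0.26. Of 21 antioxidant genes 3 were at least 2-fold higher, with a median of 0.50. Prdx2, an abundant red cell peroxiredoxin, had 3743 CPM on day 3 and 1554 CPM on day 2 (1.27), the glutathione peroxidase gene Gpx1 2391 CPM on day 3 and 931 CPM on day 2 (1.36), and the glutaredoxin gene Glrx 54.3 CPM on day 3 and 17.5 CPM on day 2 (1.63).

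Genes of late remodelling serve the clearance of proteins and organelles or the exit of the nucleus. Of 23 measured members 10 were at least 2-fold higher, against 5.91% of all genes, and none lower, with a median of 0.76. Without the cells low in S phase genes 2 of the 23 were at least 2-fold higher, with a median of 0.28. Tmcc2, whose ratio of 3.28 was the highest of the list, had 989 CPM on day 3 and 102 CPM on day 2. Its lowest, median and highest cells were at 0, 11.6 and 21290 CPM on day 3 and at 0, 1.26 and 5594 CPM on day 2. Most cells of both days were thus low, and 11 cells of day 3 and 2 of day 2 were over 1000 CPM. Bpgm, which makes the 2,3-bisphosphoglycerate that lowers the oxygen affinity of hemoglobin, had 266 CPM on day 3 and 37.97 CPM on day 2 (2.81), with 9 cells of day 3 and 0 of day 2 over 1000 CPM. Ube2h, a ubiquitin-conjugating enzyme, had 156 CPM on day 3 and 33.4 CPM on day 2 (2.22), and Xpo7, a nuclear exportin of late erythroblasts, 282 CPM on day 3 and 53.4 CPM on day 2, a 5.28-fold difference. Trim10, a ubiquitin ligase gene, had 695 CPM on day 3 and 309 CPM on day 2 (1.17). With dexamethasone 4 of 20 measured members were at least 2-fold higher, with a median of 0.22. DESeq2 called Trim10 and Bpgm higher over both cultures. The highest ratio of all genes eligible to be named was that of Lgmn, a lysosomal protease gene, with 82.2 CPM on day 3 and 8.17 CPM on day 2 (3.33). Among the 12 highest were also Tcp11l2 (3.09), Dnajb9, a chaperone of the endoplasmic reticulum (1.87), Neat1, the RNA scaffold of paraspeckles (1.87), Calcoco1, an autophagy receptor gene (1.86), the adaptor gene Grap2 (1.83), Ypel4 (1.82) and the unnamed transcript Gm45223 (1.81), beside Tmcc2, Bpgm and Ube2h.

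Several of these transcripts lay mostly in a small set of cells low in S phase transcripts. The 30 S phase genes were level in sum, with 14113 CPM on day 3 and 14286 CPM on day 2, a median of -0.01 and none past 2-fold. The lowest, median and highest cells were at 127, 13461 and 32296 CPM on day 3, and at 510, 13508 and 33576 CPM on day 2. Cells under 3000 CPM numbered 14 of 93 on day 3 (15.1%, Clopper-Pearson interval 8.48 to 24.0) and 5 of 96 on day 2 (5.21%, 1.71 to 11.7). The intervals overlap, cover counting error only, and 4 cells on each day lay between 2000 and 4000 CPM. The 14 cells of day 3 held 10.8% of the plate's counts, had a median of 4887 genes against 7127 in the other cells of that day, and a median of 889728 counts against 1270948. Late remodelling genes summed to a median of 30111 CPM in them and 3213 CPM in the others, and globins to 51186 CPM in them and 9218 CPM in the others. Of the 14 cells, 4 also carried at least 2 neutrophil or monocyte markers at 10 CPM or more. Among these 4 was the shallowest kept cell of day 3, with 66140 counts. Its 1331 CPM of late remodelling genes and 3069 CPM of globins lay below the medians of the other cells of day 3.

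The 14 cells held 94.6% of the day 3 counts of Tmcc2, 90.7% of Tcp11l2, 89.5% of Lgmn, 87.8% of Slc2a1, 83.4% of Xpo7, 78.6% of Bpgm, 72.9% of Neat1 and 70.8% of Ube2h, but 0.552% of those of Ldha and 0.0612% of those of Pdk1. Of the 555 genes at least 2-fold higher, 97 had over 50% of their day 3 counts in them. The median share of day 3 counts in the 14 cells was 7.29% over the higher genes and 3.80% over all genes. The higher genes were picked on a day 3 sum that includes these cells, so their shares are not independent of that choice. Without the cells under 3000 CPM on both days, 416 of those 555 genes and 412 of the 525 lower genes kept a 2-fold difference. The log2 ratio was then 0.11 for Tmcc2, 0.24 for Xpo7, 0.35 for Lgmn, 1.01 for Bpgm and 1.02 for Ube2h. The ratio of Slc2a1 turned to -1.47, while it was -2.10 for Pfkl, -1.33 for Pdk1, -1.06 for Ldha and 0.73 for Alas2. Bcl2l1, an erythropoietin target that encodes the survival protein BCL-XL, had 375 CPM on day 3 and 143 CPM on day 2 (1.39). The 14 cells held 70.04% of its day 3 counts, and its ratio without those low cells was 0.08. Its median cell was at 74.7 CPM on day 3 and 87.5 CPM on day 2.

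**Figure D4:**
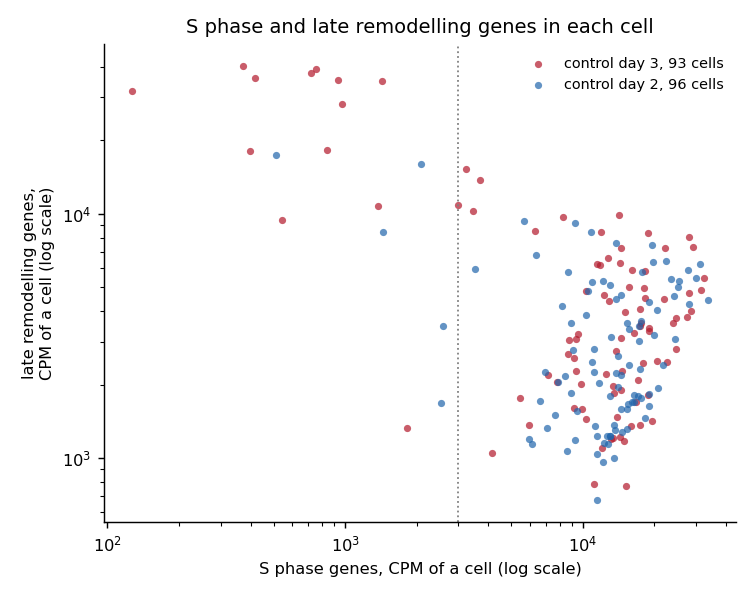
CPM of S phase genes (x axis) and of late remodelling genes (y axis) in each kept cell, both on log scales; red, 93 cells of control day 3, blue, 96 cells of control day 2; the dotted line is at 3000 CPM. Of the cells left of the line 14 are from day 3 and 5 from day 2, and the highest sums of remodelling genes lie there.

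Within a day, cells with more globin tended to have less of the glycolytic list. Spearman's rho between the 2 sums was -0.42 over 93 cells of day 3 and -0.53 over 96 cells of day 2. It is a description, since the cells share a plate and both sums are shares of the same total. Cells without neutrophil or monocyte markers were ranked by globin into 4 groups a day. On day 3 the groups had globin medians of 3310, 8908, 16908 and 38146 CPM and glycolysis medians of 8944, 7211, 4630 and 5139 CPM. On day 2 they had globin medians of 742, 3103, 10510 and 20377 CPM and glycolysis medians of 19931, 17893, 15403 and 6332 CPM. Of groups close in globin, that of day 3 with 8908 CPM of globin thus had 7211 CPM of glycolytic genes, against 15403 CPM in that of day 2 with 10510 CPM of globin. Among the cells highest in globin the values lay close, at 5139 CPM on day 3 and 6332 CPM on day 2. The sums of heme synthesis genes followed globin with rho of 0.97 on day 3 and 0.96 on day 2, and those of ribosome biogenesis ran against it with -0.80 on day 3 and -0.87 on day 2. The number of genes with a count also ran against globin, with -0.80 on day 3 and -0.82 on day 2.

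**Figure D5:**
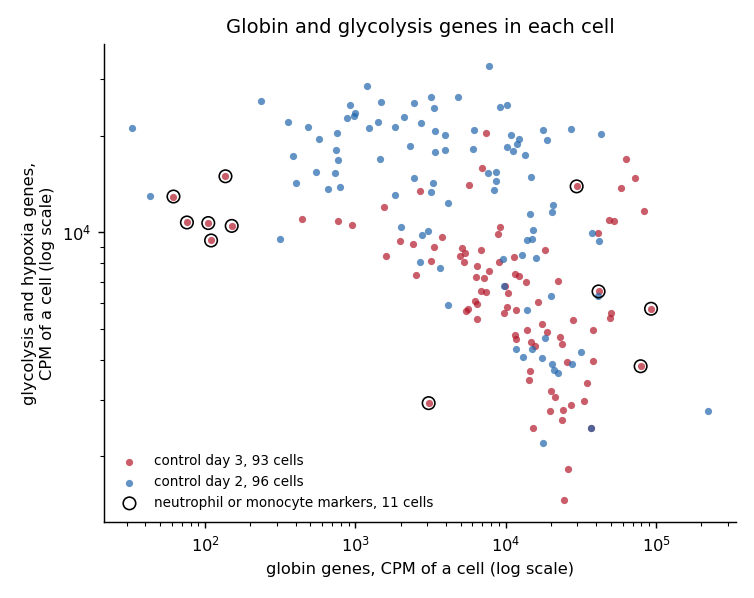
CPM of globin genes (x axis) and of the glycolysis and hypoxia list (y axis) in each kept cell, both on log scales; red, 93 cells of control day 3, blue, 96 cells of control day 2; rings mark the 11 day 3 cells with neutrophil or monocyte markers. At middle levels of globin most day 2 cells lie above the day 3 cells.

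Egr1, Fos, Kit and Igf2bp1 were at least 2-fold lower on day 3. Egr1, a transcription factor gene induced within minutes of growth factor signalling, had the lowest ratio of the genes eligible to be named, -3.78, with 18.4 CPM on day 3 and 253 CPM on day 2. Its median cell was at 0 CPM on day 3 and 87.7 CPM on day 2, and it was counted in 34 of 93 cells on day 3 and 88 of 96 on day 2. With dexamethasone the ratio was -3.53. DESeq2's adjusted p over both cultures was 5.18e-16 and edgeR's 0.727. Fos, another gene of the early response, had 14.8 CPM on day 3 and 54.1 CPM on day 2 (-1.87). Of 12 measured immediate early genes 3 were at least 2-fold lower and none higher, with a median of -0.42, while Myc was at -0.07 and Klf6 at 0.97. DESeq2 called Egr1, Fos, Fosb and Junb lower over both cultures, and Klf4, which had 99.7% of its day 3 control counts in 1 cell, higher. Of 17 early progenitor genes 3 were at least 2-fold lower and 3 higher, with a median of -0.30. The higher members depended on the 11 day 3 cells carrying markers of neutrophils or monocytes. Leaving these cells out gave 0 of the 17 genes higher and 6 lower, with a median of -0.53. Kit had 49.5 CPM on day 3 and 139 CPM on day 2 (-1.49) and was counted in 45 of 93 cells on day 3 and 75 of 96 on day 2. Igf2bp1, an RNA-binding protein gene of the fetal state, had 35.97 CPM on day 3 and 89.1 CPM on day 2 (-1.31), and Gata2 18.7 CPM on day 3 and 32.98 CPM on day 2 (-0.82). DESeq2 called Igf2bp1 and Gata2 lower over both cultures. The third lower member, the receptor gene Flt3, had 0.00892 CPM on day 3 from 1 count and 23.2 CPM on day 2, where 1 cell held 66.5% of its counts. Ikzf2, the highest member, had 9.11 CPM on day 3, where 1 cell held 51.03% of its counts, and 2.30 CPM on day 2.

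The 12 lowest ratios held, beside Egr1, Pfkl and Slc16a3, those of the rRNA gene CT010467.1 (-2.86), the Rab regulator gene Tbc1d13 (-2.22), the splicing factor gene Prpf19 (-2.12), the kinesin gene Kif3a (-2.03), Clstn1 (-2.03), the ceramide transfer protein gene Col4a3bp (-1.98), Vac14 (-1.94), Zfp385a (-1.92) and Sbf1 (-1.91). CT010467.1 (chr17:39846353-39848827, minus strand) had 9010 CPM on day 3 and 65344 CPM on day 2. It separated the plates almost without overlap, since 92 of 93 cells were under 20000 CPM on day 3 and 95 of 96 cells over it on day 2. The 1 day 3 cell above that value had 60402 CPM and, at 66140 counts, was the shallowest kept cell. The 1 day 2 cell below it had 2513 CPM and, at 3757116 counts, was the deepest. CT010467.1 had 27610 CPM on control day 1 and 27399, 64516 and 72040 CPM on days 1, 2 and 3 with dexamethasone, where it was not lower on day 3. The mitochondrial rRNA mt-Rnr2 had 8849 CPM on control day 3 and 17974 CPM on control day 2, and the neighbouring lincRNA Gm26917 2675 CPM on day 3 and 7770 CPM on day 2. In the dexamethasone culture CT010467.1 had a log2 ratio of 0.16 and the glycolysis and hypoxia list the median of -1.39 given above. The rRNA level thus differed between the control plates along with every difference given here. Its part in them was not tested, and the dexamethasone culture, with 1 plate a day, does not test it. By CPM, which is not per length, mt-Co1 (11895), Hbb-bs (9322), CT010467.1, mt-Rnr2 and Eef1a1 (8795) were the 5 highest on day 3. Shorter genes had higher ratios, with medians of 0.23 in the shortest and -0.15 in the longest of 5 equal groups of 9382 genes, and of 0.20 in the shortest and -0.16 in the longest in the dexamethasone culture. With GC content the trends were opposite, with medians of 0.14 in the lowest and -0.12 in the highest of 5 groups in control, and of -0.06 in the lowest and 0.10 in the highest with dexamethasone.

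The 30 genes of G2 and M phase had a median of -0.07 and none past 2-fold. Beside the counts that follow, 5.91% of all genes were at least 2-fold higher and 5.59% at least 2-fold lower. Counts of 1 or 2 members in the lists below do not set those lists apart from these shares. Of 19 kinase inhibitor and quiescence genes 2 were higher (median 0.24), with Gadd45a, a growth arrest gene, at 78.98 CPM on day 3 and 25.8 CPM on day 2 (1.61). The 14 cells low in S phase genes held 62.8% of its day 3 counts. Of 20 p53 targets 1 was higher and 2 lower (median 0.10), and of 29 ribosome biogenesis and MYC target genes 2 were lower (median -0.25), Utp20 the most at -1.23. The 84 measured ribosomal protein genes had a median of 0.19, with 70 above 0 and none past 2-fold. Of 8 mitochondrially encoded genes 1 was higher, mt-Nd1, a subunit of complex I, at 7982 CPM on day 3 and 3877 CPM on day 2 (1.04), and DESeq2 called it over both cultures. The 23 nuclear respiratory chain genes had a median of 0.02 and none past 2-fold. Of 16 erythropoietin and STAT5 targets 2 were higher and 1 lower (median 0.13). Pim1, a survival kinase gene, had 137 CPM on day 3 and 61.8 CPM on day 2 (1.15), and DESeq2 called Pim1 and Cish. Of 11 genes of the Bcl2 family 1 was higher and 1 lower (median 0.42). Of 20 amino acid and protein stress genes 1 was lower, Atf3 at -1.06 (median -0.05), and DESeq2 called Psat1, Gars and Slc7a5 lower. The 20 cholesterol synthesis genes (median 0.05), 12 heat shock genes (-0.31) and 18 chromatin condensation genes (0.03) had none past 2-fold. Of 8 interferon response genes 1 was higher and 1 lower (median -0.30), with Oasl2 at 149 CPM on day 3, 97.5% of it in the 14 cells low in S phase genes, and 13.5 CPM on day 2.

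Cells with transcripts of other blood lineages were present on day 3. At least 2 neutrophil or monocyte markers at 10 CPM or more were found in 11 of 93 cells on day 3 (11.8%, interval 6.05 to 20.2) and in 0 of 96 on day 2, which allows a share of up to 3.13% by 3 cells (Clopper-Pearson limit 3.77%). The control plate of day 1 had 18 such cells of 94, and the dexamethasone plates had 11 of 94, 6 of 92 and 11 of 94 on days 1, 2 and 3, so that control day 2 was the only plate of the 6 with none. These markers summed to 2214 CPM on day 3 and 4.32 CPM on day 2, and the 11 cells held 98.8% of the day 3 sum. Mpo, the myeloperoxidase of granules, had 1059 CPM on day 3 and 2.39 CPM on day 2. Of the 11 cells, 6 had 7965 to 52172 CPM of these markers and 61.5 to 150.2 CPM of globin. The other 5 had 98.4 to 1107 CPM of the markers and 3069 to 92609 CPM of globin. Cells of day 3 outside the 11 reached 717 CPM of the markers, so those 5 lie near the limit. Mast cell and basophil markers summed to 59.4 CPM on day 3 and 3.75 CPM on day 2, with 83.9% of the day 3 counts of Hdc, which makes histamine, in 1 cell. The 7 megakaryocyte markers had 1 at least 2-fold higher and 2 lower (median -0.36), against 5.91% higher and 5.59% lower of all genes. The macrophage markers summed to 17.5 CPM on day 3 and 10.7 CPM on day 2, with Cd68 alone averaging 5 CPM or more (0.36). Without the 11 cells the median of the glycolysis and hypoxia list was -1.19, that of late remodelling 0.79 and that of heme synthesis 0.75. Without the cells low in S phase genes these medians were -1.06, 0.28 and 0.48.

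The dexamethasone culture gave a second, separate pair of plates for the same interval. Over 8988 genes measured in both, 95 genes were at least 2-fold higher in both cultures, which is 22.6% of the 421 higher in control and 24.3% of the 391 higher with dexamethasone. Lower in both were 73 genes, 15.6% of the 468 lower in control and 25.7% of the 284 lower with dexamethasone. Opposite directions were seen for 27 genes higher in control and lower with dexamethasone, 6.41% of the 421 and 9.51% of the 284. Another 23 genes were lower in control and higher with dexamethasone, 4.91% of the 468 and 5.88% of the 391. As a base for all these shares, of the 8988 genes 421 were higher and 468 lower in control. With dexamethasone 391 of the 8988 were higher and 284 lower. Globins differed in size between the cultures, with a median of 1.04 in control and 3.51 over 5 measured genes with dexamethasone, where their sum was 5037 CPM on day 3 and 490 CPM on day 2. The difference between the cultures has 1 plate in each cell of the design and was not tested.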

How the data were processed

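Polyadenylated RNA of single cells from 6 plates (3 days, 2 cultures) was analysed. Values in the authors' deposited table are unnormalized read counts for each gene in each well. The submitters' processing notes name STAR 2.4, featureCounts and GRCm38. Annotation release, strand setting and molecular identifiers were not found in them, so reads of overlapping or antisense genes cannot be told apart and intervals cover counting error only. Of 576 value columns 575 matched a well's label and 1 was not used. An empty header cell was left out; a reading shifted by 1 column would give Hba-a1 10.1 CPM on control day 3 and 4001 CPM on day 2, against 4160 and 2161 CPM in the reading used.

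Counts of kept cells were summed per plate and scaled by TMM (edgeR 4.0.16, R 4.3.3); ratios used a prior count of 2 and a mean CPM of 5 or more. Poisson and Clopper-Pearson intervals are at 95% confidence (scipy 1.17.1). edgeR's quasi-likelihood test and DESeq2 1.42.0 were run on all 6 sums with Benjamini-Hochberg adjustment; a standard error (SE) is the edgeR fold change divided by the square root of its F statistic. The ratio step was tested on simulated data. Doublets were not called in these sorted wells. Of 49466 gene identifiers 49326 matched GENCODE vM21. The members and the 31 gene lists were chosen with earlier results of these data known. Genes eligible to be named averaged 20 CPM or more, with a count in at least 25% of cells of the plate where they were higher and at most 20% of that plate's counts in 1 cell; the 12 highest and 12 lowest, the highest, lowest and most abundant of each list, members with a known role and the 5 highest CPM were named. Some genes that this rule names are not reported here. Alternatives covered scaling, weighting, thinning, cells kept, filters, prior count and fold.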

Additional observations from a re-analysis of the deposited data

Results flagged for a closer look

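Log2 ratios of day 3 over day 2 pointed in opposite directions in the control and the dexamethasone culture, by at least 2-fold in each, for 5 genes among those named or listed. Hdc stood at 3.02 in control and -4.08 with dexamethasone, and Ikzf2 at 1.98 in control and -2.21 with dexamethasone. Itgb3, an integrin gene of platelets, stood at 2.46 in control and -1.04 with dexamethasone, and Slc2a1 at 1.13 in control and -2.01 with dexamethasone. Perp, a p53 target, stood at -1.56 in control and 1.04 with dexamethasone. Each culture has 1 plate a day, so the difference between the cultures was not tested. In the control culture 1 cell held 83.9% of the day 3 counts of Hdc, 51.03% of those of Ikzf2, 50.2% of those of Itgb3 and 20.4% of those of Slc2a1, and 67.9% of the day 2 counts of Perp.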

How the results depend on the processing

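The counts of genes past 2-fold depend on the filter and the fold. They were 1396 higher and 1311 lower among genes averaging 1 CPM or more, 105 and 65 among those averaging 50 CPM or more, and 1388 and 1312 at 1.5-fold, against 555 and 525. The higher genes were 51.4% of these 2 counts together. With each gene's highest cell left out they were 41.5% (420 and 592), and without the 11 cells that carry neutrophil or monocyte markers 39.5% (414 and 634). DESeq2 called 167 genes higher and 216 lower over both cultures where edgeR called 0. edgeR also called 0 genes among those averaging 50 CPM or more (529 at an unadjusted p under 0.05), with no filter (1383), without cells with neutrophil or monocyte markers (1549), on the 4 plates of days 2 and 3 (1209) and with each plate left out in turn, where the calls ranged from 0 to 0 and the unadjusted counts from 669 to 1948. Without cells with neutrophil or monocyte markers Hdc turned to -0.98, Ikzf2 to -0.56 and Itgb3 to -4.79. Without cells under 3000 CPM of S phase genes, an alternative chosen after seeing the data, Slc2a1 turned to -1.47 and the counts were 500 and 482. The causes were not tested. Total-count and DESeq2 scaling reversed no ratio of 2-fold or more among the 105 genes tried. No paired analysis was possible because replicate numbers are well numbers of single cells and each culture and day has 1 plate. With 1 plate a side, plate and day cannot be told apart. Depth limits genes near 3 counts a plate, and also readings of single cells. In the shallowest kept cell of day 3, with 66140 counts, few counts sufficed for a marker at 10 CPM. With cells thinned to 1 depth, the neutrophil and monocyte median was 8.77 against 10.98. That of the glycolysis and hypoxia list was -0.99 against -1.11, with 11 members at least 2-fold lower against 13. Thinning reversed 0 ratios of 2-fold or more among the 105 genes.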
